A study of Mus musculus with 56 samples.

Results

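The mouse stomach is lined by squamous epithelium in the forestomach and by gastric glands in the glandular stomach, and 10 genes of the glands were followed here on every array of a chrysene study: Tff1, Tff2, Pgc, Gkn1, Gkn2, Gkn3, Cblif, Atp4a, Atp4b and Muc5ac. They are 10 of the 20018 genes that could be named, and were found by matching the RefSeq accession of each probe to a symbol (Cblif was formerly called Gif). Each gene was read from 1 probe per tissue, the probe with the highest mean Cy5 median signal. The measurement is the log2 ratio of the sample RNA (Cy5) over a universal mouse reference RNA (Cy3), as normalized and deposited by the authors. The normalization (LOWESS) shifts the ratios of each array by a curve over intensity. A ratio of 0 is thus the typical ratio of an array at that intensity, and not equal raw signal in both channels. Levels of different genes are not compared, because each probe has its own ratio to the reference.

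RNA came from adult male mice of the transgenic strain MutaMouse, about 14 weeks old, which received the vehicle olive oil by gavage (D0) or the same oil with chrysene. Chrysene is a polycyclic aromatic hydrocarbon, and its daily dose was 17.5 mg/kg-bw in D1, 50 in D2 and 150 in D3. Every mouse, controls included, was gavaged on 28 days and its tissues were taken 72 h after the last dose. Forestomach and liver had 5, 5, 4 and 5 mice in D0 to D3, and lung had 5, 5, 3 and 5, with 1 array per mouse and tissue, 56 in all. The study asked whether single polycyclic aromatic hydrocarbons act by a shared mode, and the chrysene arrays compare each dose with vehicle within a tissue.

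In gastric glands, parietal cells secrete acid, chief cells secrete pepsinogen, neck cells make mucus and pit cells cover the surface. The stratified squamous epithelium of the forestomach has none of these glands, and the 2 regions meet at the limiting ridge. In RNA from a whole piece of tissue, fewer cells of a type and less RNA per cell cannot be told apart.

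The defining genes of each labelled tissue were present in it. Krt5, Krt14, Krt13 and Lor, genes of squamous epithelium, were well above background on all 19 forestomach arrays. Alb and Fgb were so on all 19 liver arrays and Sftpc and Scgb1a1 on all 18 lung arrays. Scgb1a1, the secretoglobin of airway club cells, was also well above background on all 19 forestomach arrays (2.98 to 6.33), and Sftpc on 0 of them. Alb and Fgb were so on 14 and 11 forestomach arrays, reaching 4.00 and 2.85, and Lor on 18 of 18 lung and 17 of 19 liver arrays. Krt14 was well above background on all 18 lung arrays. The forestomach arrays were uneven in brightness, with 18.1% to 50.2% of probes well above background, against 47.6% to 55.2% in lung and 33.2% to 45.2% in liver. Alongside the squamous genes, 10 of the 19 forestomach arrays carried all 10 glandular genes well above background, and the other 9 carried 2 to 8 of them. On the lung arrays of mice 17 and 19, both at D3, Krt13 was at 5.67 and 6.01, against at most -2.06 in the other lung samples, and the lung differences at D3 are given with and without them.

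The arrays with all 10 genes came from every dose group, from 3 of 5 vehicle mice (2, 3 and 5), 2 of 5 mice at D1 (8 and 10), 4 of 4 at D2 (11, 12, 13 and 15) and 1 of 5 at D3 (19). By slide they were 1 of 5 arrays on slide 1, 4 of 7 on slide 2 and 5 of 7 on slide 3. A slide here is the glass that holds the arrays hybridised together, and slide 3 was the brightest. Over the array positions, they were 2 of 4 arrays in column 1, 2 of 5 in column 2, 4 of 5 in column 3 and 2 of 5 in column 4. Column 1 held mostly D0, column 2 D1, column 3 D2 and column 4 D3. The part of slide and column in these counts was not tested. The values below take the genes by the cell that is known for them.

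Atp4a and Atp4b encode the alpha and beta subunits of the proton pump by which parietal cells acidify the stomach. Atp4a had a log2 ratio of 0.09, 7.31, 5.92, 0.15 and 5.68 in vehicle mice 1 to 5, and of 0.02, 0.17, 5.79, 0.29 and 6.67 in D1 mice 6 to 10. In D2 mice 11, 12, 13 and 15 it was 5.87, 7.06, 5.38 and 4.72, and in D3 mice 16 to 20 it was -0.01, -0.08, -0.02, 7.18 and 0.15. No array lay between 0.29 and 4.72, and Atp4a was well above background on exactly the 10 arrays above the gap. For Atp4b the log2 ratio was 0.10, 7.08, 6.63, -0.20 and 6.58 in mice 1 to 5 and 0.31, 0.01, 6.54, -0.05 and 6.65 in mice 6 to 10. Mice 11, 12, 13 and 15 had 6.31, 7.12, 6.24 and 6.23, and mice 16 to 20 had 0.09, 0.45, 3.00, 7.28 and 0.91. The same 10 mice lay at 6.23 or above, and the next value was the 3.00 of mouse 18. The Atp4b probe is the brighter of the pair, with a Cy5 signal of up to 17596 on slide 2 where Atp4a reached 2398, so that signal for Atp4b alone does not show that the subunits differ. Atp4b was well above background on 12 arrays, the other two being those of mice 18 and 20.

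Cblif encodes the intrinsic factor that carries vitamin B12, and Pgc encodes pepsinogen C; chief cells make both in the mouse. Cblif measured 0.16, 9.49, 8.65, 0.68 and 7.34 in mice 1 to 5 and 1.09, -0.25, 8.17, -0.02 and 8.41 in mice 6 to 10. It measured 7.95, 9.23, 7.90 and 7.84 in mice 11, 12, 13 and 15 and 0.16, 0.40, 0.09, 8.87 and 1.41 in mice 16 to 20. No Cblif value lay between 1.41 and 7.34. The log2 ratio of Pgc was 0.32, 5.14, 5.64, 0.53 and 4.32 in mice 1 to 5 and 1.17, -0.05, 4.35, -0.17 and 4.74 in mice 6 to 10. At D2 it was 4.52, 5.73, 4.85 and 4.42 in mice 11, 12, 13 and 15, and at D3 it was -0.08, 0.47, 0.93, 4.95 and 1.51 in mice 16 to 20. Pgc also left a gap, from 1.51 to 4.32, with the same 10 mice above it. Its second probe correlated with the first at r = 0.99 over the 19 arrays, which share slides and reference.

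Gkn1, Gkn2 and Gkn3 encode gastrokines, small proteins secreted by gastric epithelium, and lie side by side in the genome. Gkn1 had log2 ratios of 0.17, 5.72, 4.45, -0.06 and 3.47 in mice 1 to 5 and 0.06, -0.13, 3.92, 0.13 and 4.37 in mice 6 to 10. The D2 mice 11, 12, 13 and 15 had 4.16, 6.28, 3.36 and 3.103, and the D3 mice 16 to 20 had -0.09, 0.13, 0.22, 5.78 and 0.09. Gkn1 was well above background on the 10 arrays only, and its gap ran from 0.22 to 3.103. The values of Gkn3 were 0.40, 5.61, 3.39, -0.23 and 3.36 in mice 1 to 5 and 0.01, 0.15, 3.83, 0.07 and 4.33 in mice 6 to 10. They were 3.82, 5.52, 3.93 and 3.45 in mice 11, 12, 13 and 15 and 0.21, 0.06, 0.09, 5.86 and 0.32 in mice 16 to 20. Gkn3 had a gap from 0.40 to 3.36, with the same 10 mice above it, and was well above background on 13 arrays. Gkn2 was at 3.66, 8.66, 7.76, 2.59 and 7.77 in mice 1 to 5 and at 1.90, 0.52, 7.46, 2.29 and 8.04 in mice 6 to 10. It was at 7.47, 8.65, 7.47 and 7.47 in mice 11, 12, 13 and 15 and at 1.10, 4.82, 6.73, 8.97 and 3.37 in mice 16 to 20. Gkn2 was well above background on 18 of 19 arrays, and mice 17 and 18 had 4.82 and 6.73. Its probe is far brighter than that of Gkn1, which reached 454 in Cy5 on slide 1 where Gkn2 reached 62194, so that Gkn2 above background with Gkn1 at background does not show that the genes differ. The Gkn2 probe is printed in 10 spots per array, and the SD of the unnormalised log2 ratio over these spots was 0.05 to 0.40 (median 0.14), which is the noise of spots within an array alone.

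Because the 3 gastrokines are neighbours in the genome, their start regions are shown, together with that of Pgc. The tables used here hold 6 of the 10 members (Atp4a, Cblif, Gkn1, Gkn2, Gkn3 and Pgc), from RefSeq on GRCm38.p6. Each sequence runs 5′ to 3′ from 150 bases before to 20 bases after the annotated start. Capitals mark TATAAA, the core promoter box, and GATAA, the core of the site bound by GATA factors, searched on both strands without mismatch. The windows are chr6:87350896-87351065 (minus strand) for Gkn1, chr6:87373215-87373384 (plus strand) for Gkn2, chr6:87388916-87389085 (minus strand) for Gkn3 and chr17:47726692-47726861 (plus strand) for Pgc.
Gkn1: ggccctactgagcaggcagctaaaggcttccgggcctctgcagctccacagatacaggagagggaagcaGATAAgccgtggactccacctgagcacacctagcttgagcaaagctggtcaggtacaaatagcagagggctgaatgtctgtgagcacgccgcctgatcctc
Gkn2: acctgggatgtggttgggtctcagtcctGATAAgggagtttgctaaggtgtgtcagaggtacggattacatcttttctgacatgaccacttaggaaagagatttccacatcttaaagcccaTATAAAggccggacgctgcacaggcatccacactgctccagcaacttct
Gkn3: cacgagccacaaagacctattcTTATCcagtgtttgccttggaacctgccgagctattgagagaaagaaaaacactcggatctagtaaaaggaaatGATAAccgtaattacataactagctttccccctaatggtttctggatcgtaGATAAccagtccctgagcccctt
Pgc: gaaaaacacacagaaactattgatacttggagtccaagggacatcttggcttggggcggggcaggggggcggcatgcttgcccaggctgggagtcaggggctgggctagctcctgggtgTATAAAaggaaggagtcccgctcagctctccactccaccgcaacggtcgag
TATAAA occurred in 2 of the 6 windows, those of Gkn2 and Pgc, with its first base 29 and 31 bases before the start, and in 8.1% of all 32851 promoter windows of this length. GATAA occurred in 3 of 6 windows, those of the gastrokines, against 14.8% of all windows. The motifs do not overlap in these windows. A match is a run of letters and not a bound site.

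Tff1 and Tff2 encode trefoil factors, small peptides secreted with mucus, Tff1 mainly by pit cells and Tff2 mainly by neck cells. Tff1 measured 4.34, 6.74, 5.58, 2.31 and 6.34 in mice 1 to 5, and 4.15, 1.41, 5.09, 3.66 and 6.69 in mice 6 to 10. In mice 11, 12, 13 and 15 it measured 5.71, 6.68, 5.57 and 5.58, and in mice 16 to 20 2.89, 5.08, 5.39, 7.01 and 4.28. Tff1 was well above background on all 19 arrays and formed a continuous range from 1.41 to 7.01, with no gap wider than 0.90. For Tff2, mice 1 to 5 had 0.26, 5.98, 5.18, -0.03 and 5.44, and mice 6 to 10 had 0.10, -0.02, 4.75, -0.03 and 5.33. At D2 the values were 4.76, 5.89, 4.44 and 4.48 in mice 11, 12, 13 and 15, and at D3 they were 0.07, 0.31, 2.39, 6.35 and 0.96 in mice 16 to 20. Tff2 lay at 4.44 or above in the same 10 mice, and mouse 18 had an intermediate 2.39, as it had for Atp4b. Tff1 in mouse 18 was 5.39, within the range of 5.09 to 7.01 on the 10 arrays with all members.

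Muc5ac encodes the gel-forming mucin of surface mucous cells. Muc5ac gave 0.35, 6.56, 5.72, -0.10 and 5.65 in mice 1 to 5 and 0.99, 0.62, 5.62, 0.36 and 6.18 in mice 6 to 10. It gave 5.55, 6.64, 5.36 and 5.59 in mice 11, 12, 13 and 15 and 0.43, 1.42, 2.33, 6.90 and 1.89 in mice 16 to 20. Its 10 high values lay from 5.36 to 6.90, and the other 9 from -0.10 to 2.33 without a sharp floor, since it was well above background on 15 arrays. Mouse 18, at D3, carried Tff1, Tff2, Gkn2, Muc5ac, Atp4b and Pgc well above background, and Atp4a, Cblif, Gkn1 and Gkn3 not. The probes differ in brightness, and its part in this was not tested.

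**Figure D1:**
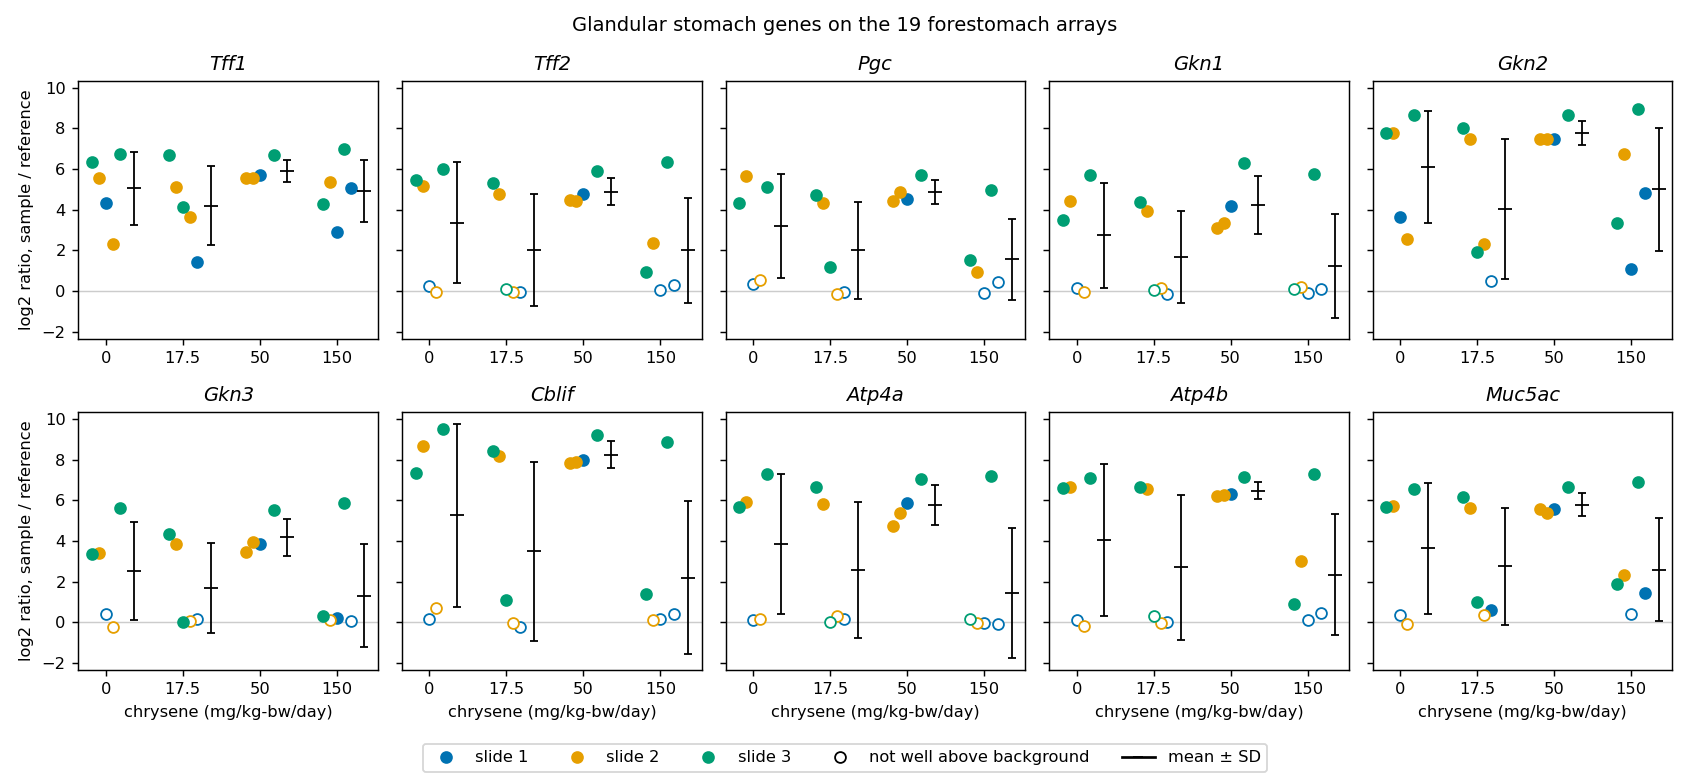
Log2 ratio of sample over reference for each of the 10 genes (panels) on the 19 forestomach arrays by chrysene dose in mg/kg-bw/day. Points are mice coloured by slide, open where the Cy5 signal was not well above background, and bars are the group mean ± SD; Atp4a shows 10 arrays at 4.72 or above and 9 at 0.29 or below, whereas Tff1 runs without a break from 1.41 to 7.01.

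Each dose was compared with vehicle in forestomach, to ask whether chrysene changed the glandular genes. None of the 10 passed the test at any dose, and the spread within a group was large. In the vehicle group Atp4a averaged 3.83 ± 3.44 (SD, n = 5), against 2.59 ± 3.34 at D1 (n = 5), 5.76 ± 0.99 at D2 (n = 4) and 1.44 ± 3.21 at D3 (n = 5). Cblif averaged 5.26 ± 4.49, 3.48 ± 4.42, 8.23 ± 0.67 and 2.19 ± 3.77 in the same order. Tff1 averaged 5.06 ± 1.79, 4.20 ± 1.94, 5.89 ± 0.54 and 4.93 ± 1.51. The D2 group was the tightest and had no low array. The ranges of D0, D1 and D3 overlapped for all 10 genes.

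At D1 the fitted log2 difference from vehicle was between -2.04 (Gkn2) and -0.83 (Gkn3), with a median of -1.21 over the 10 genes beside 0.001 over all 27525 probes tested. At D2 it lay between 0.82 (Tff1) and 2.97 (Cblif), with a median of 1.69 beside -0.013 over all probes, and at D3 between -3.07 (Cblif) and -0.13 (Tff1), with a median of -1.44 beside -0.002. The median standard error of the members was 1.49 at D1 and D3, where that of all probes was 0.175. For Cblif at D3 the 95% interval of the difference ran from -7.73 to 1.58, and for Atp4a from -6.08 to 1.30 (limma adjusted p = 0.75 for each). The fitted values leaned on single mice. Cblif at D2 was 1.70 without mouse 1 and 4.03 without mouse 2, and at D3 it ran from -4.74 without mouse 19 to -2.02 without mouse 2. Tff1 at D2 was 0.14 without mouse 4 and 1.24 without mouse 2, and its second probe gave 0.11 at D2 and -0.51 at D3. Gkn2 at D3 ran from -2.08 without mouse 19 to -0.12 without mouse 16. With array column as a covariate, which goes mostly with dose, the members ran from -0.28 to 0.66 at D2. At D3 they ran from -6.77 to -1.69 in that setting. None of these was called. For every member the interval at D3 reached -2.08 or lower and 0.93 or higher. Under a linear dose trend the fitted D0-to-D3 change ran from -1.57 (Cblif) to 0.34 (Tff1), and none of the 10 was called.

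A probe was called in limma at an adjusted p (Benjamini-Hochberg) not above 0.05 together with a change of 1.5-fold or more. This rule called 0% of the 27525 probes at D1, 0% at D2, 0.00727% (2 probes) at D3 and 0.04% (11 probes) in the trend. At an unadjusted p of at most 0.05, limma had 4.17% of probes at D1, 7.53% at D2, 9.24% at D3 and 9.18% in the trend, and again 0 of the 10 members in each. The 3 dose comparisons share their vehicle mice, so that the members' values at D1 and D3 are not independent.

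The same genes were read in lung and liver, which have no gastric glands. Cblif, Gkn1, Gkn2, Atp4a, Atp4b and Tff1 were well above background on at most 2 of 18 lung arrays and at most 1 of 19 liver arrays. In lung, Gkn3 was above background on all 18 arrays (0.78 to 1.81), Tff2 on 16 and Muc5ac on 14. In liver, Gkn3 was above background on 14 of 19 arrays (-0.25 to 0.26), Muc5ac on 14 (0.22 to 1.59) and Pgc, there read from its second probe, on 8 (-0.04 to 0.64).

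**Figure D2:**
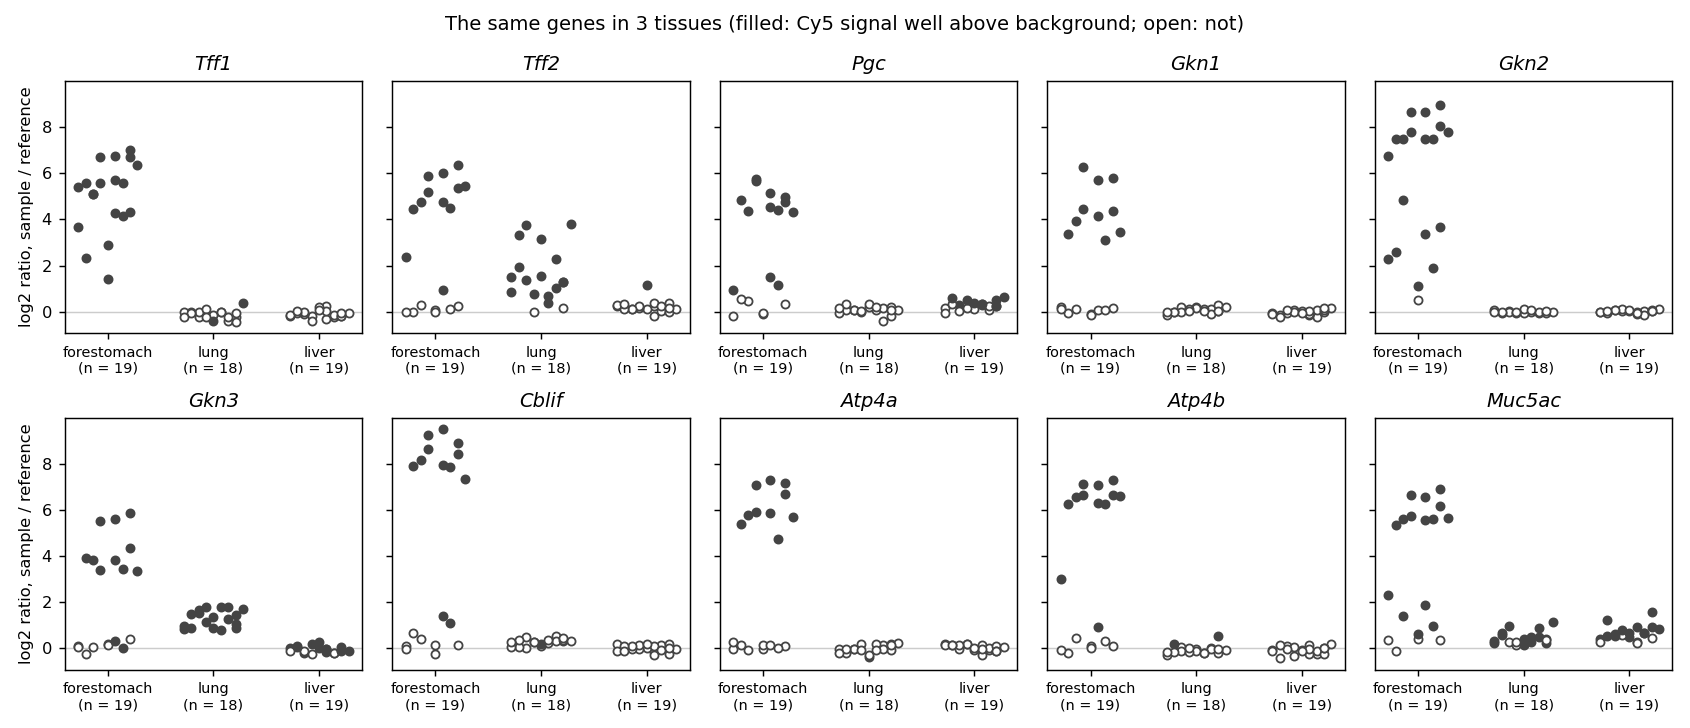
Log2 ratio of sample over reference for each gene (panels) in forestomach, lung and liver, all doses together; each point is an array, filled where the Cy5 signal was well above background. Gkn1 and Gkn2 stay near 0 on all lung and liver arrays, while Tff2 reaches 3.79 and Gkn3 1.81 in lung.

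Between vehicle groups, the genes were set in forestomach against liver and lung. Against liver, 8 of the 10 passed the filter on low signal through forestomach alone, and against lung 7 did. For these the filter largely settles the direction, so that their values are a description. Gkn2 averaged 6.09 ± 2.76 (SD, n = 5) in vehicle forestomach and 0.03 ± 0.07 (n = 5) in vehicle liver. Tff1 averaged 5.06 ± 1.79 and 0.06 ± 0.14, and Cblif 5.26 ± 4.49 and 0.08 ± 0.08, although 2 of the 5 Cblif values in forestomach were 0.16 and 0.68. Every member had the higher mean in forestomach in both comparisons.

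The filter did not settle the direction for the members that passed it in both tissues. Gkn3 was higher in forestomach than in liver by 2.60 on the log2 scale (standard error 0.79, limma adjusted p = 0.0038) and Muc5ac by 2.98 (standard error 0.94, adjusted p = 0.0053). Vehicle Gkn3 was 2.51 ± 2.40 (SD, n = 5) in forestomach and -0.09 ± 0.11 (n = 5) in liver. Vehicle Muc5ac was 3.64 ± 3.23 and 0.65 ± 0.28. The fit pools the spread over all tissues, so the standard errors here are smaller than the forestomach spread alone would give. The adjusted p values rest on that pooling, and a test on each group's own spread was not run. Against lung, Muc5ac was higher by 3.12 (standard error 0.94, limma adjusted p = 0.0038), under the same pooling. Its vehicle lung values were 0.52 ± 0.40 (SD, n = 5). Tff2 differed by 1.67 (95% interval -0.33 to 3.67, adjusted p = 0.14) and Gkn3 by 1.20 (-0.38 to 2.78, adjusted p = 0.18), and neither was called. By the same rule 10 of the 10 members were called higher against liver, where 22% of the 29773 probes tested were, and 8 of the 10 against lung, where 18.3% of 32698 probes were. Nothing is read from these counts, because of the filter.

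These calls drew on few mice. Without mouse 2, Gkn3 (1.84, limma adjusted p = 0.052) and Muc5ac (2.15, adjusted p = 0.068) lost their call against liver. Without mouse 4, Tff2 (2.58, adjusted p = 0.038) and Gkn3 (1.93, adjusted p = 0.049) gained one against lung. With median centring in place of loess, Muc5ac (2.14, adjusted p = 0.052) was not called against liver. Each slide held arrays of 1 tissue, so that slide and tissue cannot be told apart by a fixed term.

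Where a gene stayed at background on every vehicle array of the other tissue, its level there is known only to lie at background, and the fitted difference is not a measured fold. This held in liver for Tff1, Tff2, Gkn1, Gkn2, Cblif, Atp4a and Atp4b, and for Pgc by the probe read in forestomach, and in lung for Gkn1, Gkn2, Cblif, Atp4a and Atp4b. In vehicle forestomach, Atp4a, Atp4b and Cblif were well above background on 3 of 5 arrays and Tff1 and Gkn2 on 5 of 5. No bound on the fold is given, because no dye swap was made and the reference channel moved with these genes. Gkn1 was the exception, with a Cy3 range of 2.17-fold over the forestomach arrays.

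The channel of the reference was not constant for most of the 10 genes, although the same reference RNA was labelled for every array. Over the 19 forestomach arrays the Cy3 median signal of Tff1 ran from 58 to 22242 and that of Pgc from 41 to 30930.5. It was high on arrays where Cy5 was high. Relative to the median Cy3 of each array, the highest value was 377-fold the lowest for Tff1, 726-fold for Pgc and 2.17-fold for Gkn1. Over all tested probes this range was 1.36-fold at the median and 2.22-fold at the 95th percentile. The log2 ratio is thus a smaller difference than Cy5 alone shows. It also holds the shift made by LOWESS, which was large on slides 1 and 2. Tff1 had Cy5 95196 and Cy3 16336 in mouse 11 (slide 1), with a deposited ratio of 5.71. In mouse 3 (slide 2) it had 39608 and 22242, with 5.58, and in mouse 5 (slide 3) 353169 and 4844.5, with 6.34. The ratios listed above are therefore not the raw ratios of the 2 signals. In Cy5 the same range was 2705-fold for Tff1, 4404-fold for Pgc and 99.9-fold for Gkn3, whose Cy3 range was 2.06-fold. The lowest Cy5 signals of Pgc and Gkn3 were not well above background, so that their Cy5 folds are not measured folds. On slide 2, Tff1 reached 22242 in Cy3 with at most 55360 in Cy5, and on slide 3 it reached 5738 in Cy3 with up to 423777 in Cy5. What raised the reference channel was not tested.

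**Figure D3:**
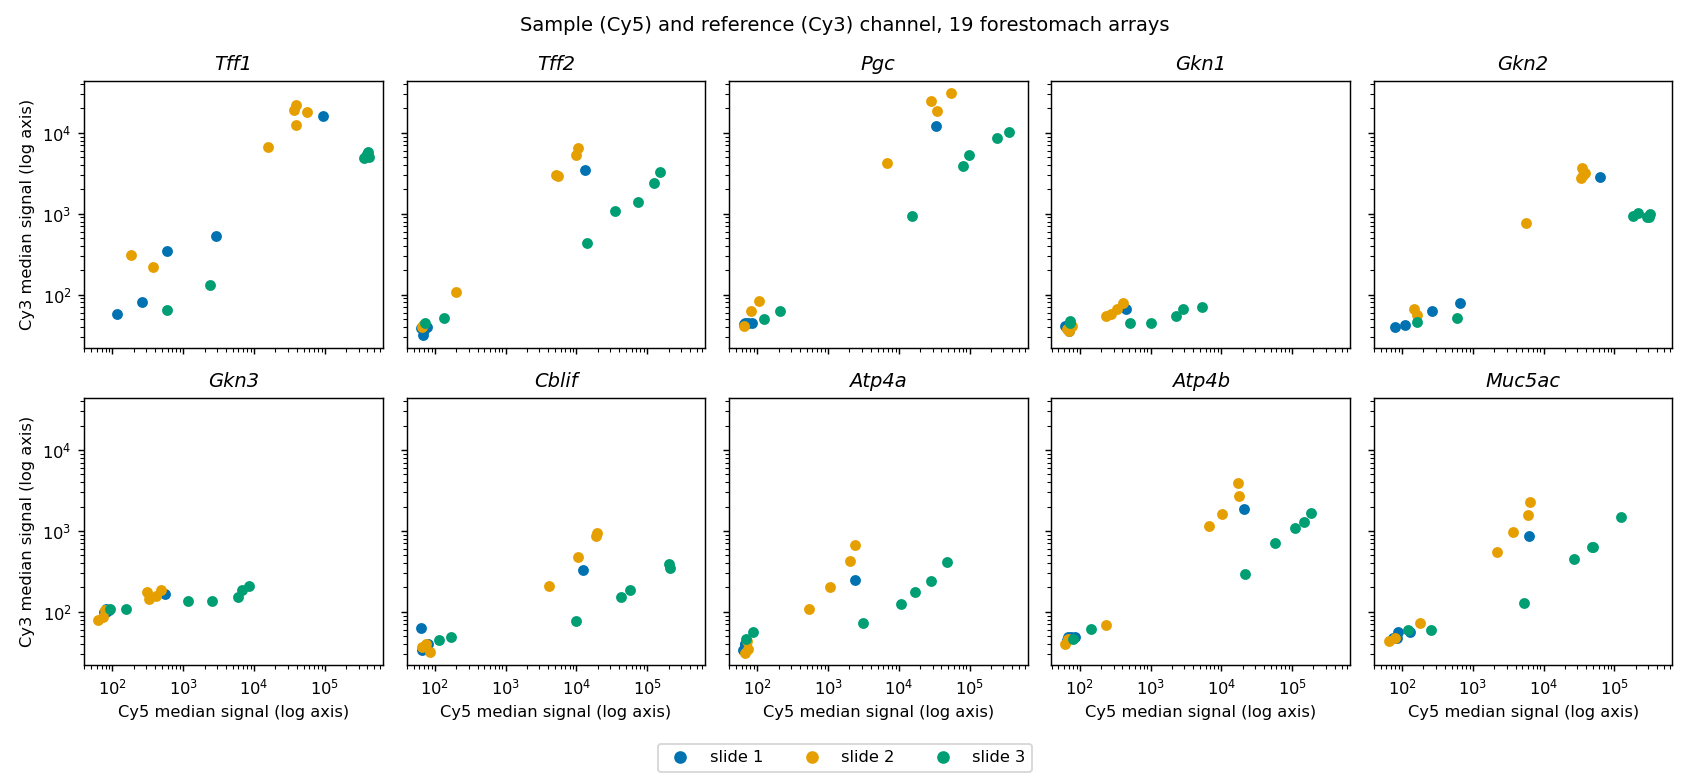
Median Cy3 signal (reference RNA) against median Cy5 signal (sample RNA) of each gene's probe on the 19 forestomach arrays, both on log axes and without background subtraction; points are arrays coloured by slide. For Tff1, Cy3 rises from 58 to 22242 along with Cy5, whereas for Gkn1 it stays between 35.5 and 79.5.

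Other genes of gastric glands were taken from lists of cell markers and set beside the mean log2 ratio of the 10 members. Likeness was Pearson's r over the 19 forestomach arrays, which share slides and reference and fall into 2 clusters, so that r here mainly reads on which side of the gap an array lies; it carries no p. Over the 14069 other genes with a tested probe, 3.21% had r of at least 0.8. Of the pit and surface list, 8 of 10 had r of at least 0.8, among them Ctse (r = 0.97), an aspartic protease, and Mucl3 (r = 0.98), while Capn8 was at 0.74. All 4 gastric transcription factors did, with Gata4 at 0.90 and Gata6 at 0.82, and so did the 5 tested endocrine genes, including Ghrl (0.98), which encodes ghrelin, and Hdc (0.87), whose product makes histamine. Gast, which encodes gastrin, was well above background on 2 of 19 arrays and was not tested.

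The parietal list held 3 of 7 tested genes at or above 0.8. Kcne2 (r = 0.96) and Kcnq1 (r = 0.96), which form the potassium channel that serves the proton pump, were among them. The anion exchangers Slc26a7 and Slc26a9 were at 0.63 and 0.70. In the chief cell list Pga5 (0.93) and Chia1 (0.98) were alike and Bhlha15 was at 0.70, while Lipf stayed at background on the 19 arrays. Muc6 and Hrh2 had no named probe.

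In mouse 18 the mean over the pit and surface list was 1.38, the parietal mean 0.15 and the chief mean -0.09, over probes that differ in brightness. On the 10 arrays with all members, the pit list mean lay between 3.88 and 5.76. Of the lists of other cell types, the 14 tested squamous genes had 0 members at r of at least 0.8 and a median r of 0.10, with list means from 2.85 to 5.19 over the arrays. Smooth muscle had 0 of 5, skeletal muscle 0 of 3 and adipocytes 0 of 4. For the intestine, Fabp2 and Lct were at 0.62 and 0.57, and Cdx1, Cdx2, Muc2, Alpi and Sis were never well above background. The pancreatic acinar list had 0 of 5, and its mean was highest in mouse 19, at 4.95, against 2.16 or less in the others. Of the hepatocyte list, Apoa1 (0.95) and Ttr (0.87) were alike and Alb (0.28) and Fgb (0.27) were not. In the airway mucous list 2 of 3 were alike, Agr2 (0.99) and Spdef (0.95), and Muc5b was at 0.797. In the lung list 1 of 4 genes was tested, Scgb1a1, at r = -0.05, and Sftpc and Ager were never well above background in forestomach.

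**Figure D4:**
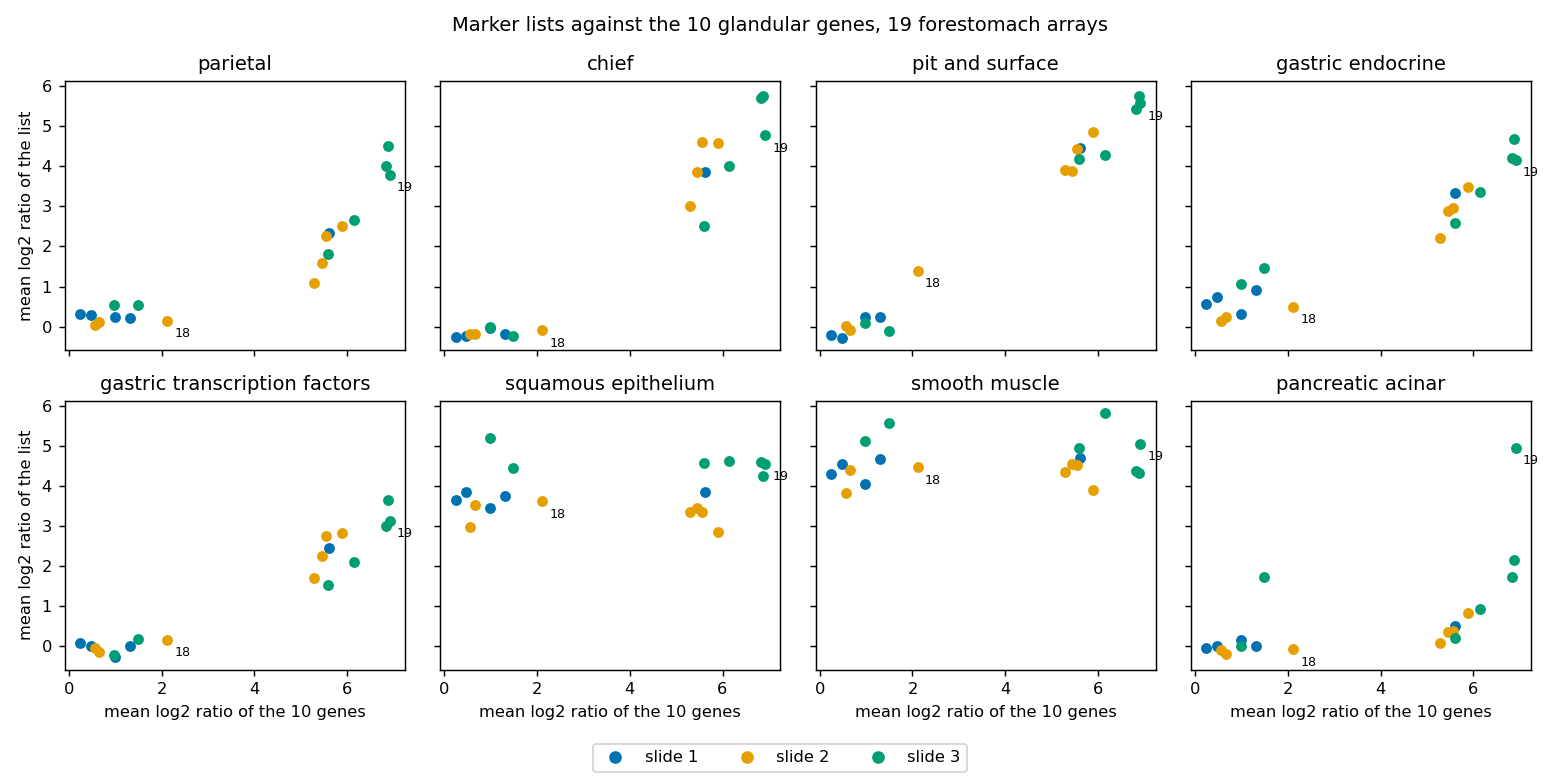
Mean log2 ratio of 8 marker lists (panels) against the mean of the 10 glandular genes, 19 forestomach arrays coloured by slide, with mice 18 and 19 numbered. The gastric lists are high on the arrays at the right, the squamous list lies between 2.85 and 5.19 on both sides, and mouse 19 stands apart for the pancreatic list at 4.95.

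The 15 genes most like the members' mean were Agr2 (r = 0.99), Tspan1, Psca, Pdia2, Bpifb1, Pla2g10, Anxa10, Vsig2, Cyp2c65, Vsig1, Sult1b1, Gsdma3, Akr1c19, Clic6 and Lypd8 (r = 0.99). Anxa10 spanned the widest range of them, from 0.02 to 10.42. The 10 members themselves had r between 0.87 and 0.99 with their mean, which contains them. The 5 genes with the lowest r were Zfp948 (-0.88), Siva1, 9130401M01Rik, Ly6c1 and Prep (-0.87), and 0.362% of all genes lay at -0.8 or below.

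Relations between members were asked within the 10 arrays that carried all of them, since a coefficient over all 19 would only read the 2 clusters. These arrays were selected by the members' own signal. Of 5 pairs computed, 4 were named for a shared enzyme, family or cell, and the two-sided permutation p values were adjusted over the 5. The permutations moved values freely across slides, although levels differed by slide. On these arrays, Tff1 was 6.34 to 7.01 on slide 3 and 5.09 to 5.71 on slides 1 and 2. Tff2 was 5.33 to 6.35 and 4.44 to 5.18. The p values thus also read the slides, and values within slides are given below. Atp4a and Atp4b had r = 0.91 (permutation p = 1.70e-04, adjusted p = 8.50e-04) and Spearman's rho = 0.92 (permutation p = 4.10e-04, adjusted 0.0015), and r = 0.86 without the 2 arrays farthest from the median. Gkn1 and Gkn2 had r = 0.91 (permutation p = 0.0014, adjusted p = 0.0017) and rho = 0.79 (permutation p = 0.0090, adjusted 0.0090), and 0.85 without the 2. Tff1 and Tff2 had r = 0.88 (permutation p = 0.0012, adjusted p = 0.0017) and rho = 0.92 (permutation p = 6.10e-04, adjusted 0.0015), and 0.88 without the 2. Pgc and Cblif had r = 0.76 (permutation p = 0.011, adjusted p = 0.011) and rho = 0.82 (permutation p = 0.0057, adjusted 0.0071), and 0.84 without the 2.

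The pair from different cells, Atp4a and Muc5ac, had r = 0.91 (permutation p = 3.60e-04, adjusted p = 9.00e-04) and rho = 0.85 (permutation p = 0.0028, adjusted 0.0047), and 0.86 without the 2. As deviations from dose-group means, without the lone D3 array, the 5 values of r were 0.80 to 0.91. Without the 2 farthest arrays these fell to 0.71 for Atp4a and Atp4b, 0.55 for Gkn1 and Gkn2, 0.82 for Tff1 and Tff2, 0.52 for Pgc and Cblif and 0.62 for Atp4a and Muc5ac. For the last pair rho of the deviations was 0.65 over the 9 arrays (permutation p = 0.067, adjusted 0.067). Over all 45 pairs r ran from 0.34 (Pgc and Tff1) to 0.98 (Gkn2 and Muc5ac), with a median of 0.87. As deviations from slide means, on 9 arrays because slide 1 held 1 of the 10, r was 0.85 for Atp4a and Atp4b, 0.90 for Gkn1 and Gkn2, 0.76 for Pgc and Cblif and 0.79 for Atp4a and Muc5ac. That of Tff1 and Tff2 fell to 0.46 (permutation p = 0.22, adjusted p = 0.22), with rho = 0.53 (permutation p = 0.15, adjusted p = 0.15) and r = 0.58 without the 2 farthest arrays, positive but not past the test on 9 arrays. Both kinds of deviation on these arrays were chosen after seeing the data.

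In lung, Tff2 varied most among the members. It measured 1.30, 0.68, 0.77, 1.94 and 3.79 in vehicle mice 1 to 5 and 1.01, 1.55, 1.38, 1.48 and 0.17 in D1 mice 6 to 10. It measured -0.0002, 3.31 and 2.30 in D2 mice 12, 13 and 15, and 3.16, 3.75, 0.87, 1.28 and 0.39 in D3 mice 16 to 20. High and low values occurred at D0, D2 and D3, and the 4 groups overlapped. The mean was 1.69 ± 1.27 (SD, n = 5) at D0 and 1.89 ± 1.48 (n = 5) at D3, a difference of 0.19 with a 95% interval of -1.32 to 1.71 (limma adjusted p = 0.93). Mice 17 and 19, whose lung arrays hold squamous keratins, had 3.75 and 1.28. Without both, the difference was -0.22 (limma adjusted p = 0.95).

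Tff2 in lung was set beside genes of airway mucous cells. Over the 18 lung arrays its r was 0.94 with Muc5b, the main gel-forming mucin of the airway, and 0.90 with Agr2, a disulphide isomerase of mucous cells, against 0.59 with Spdef, a transcription factor of goblet cells. Without the 2 arrays farthest from the median these were 0.92, 0.82 and 0.38, and without mice 17 and 19 they were 0.93, 0.91 and 0.59. The member Muc5ac, a mucin of the same cells, was at 0.74, at 0.49 without the 2 farthest arrays and at 0.67 without mice 17 and 19. Of the 14762 other genes tested in lung, 0.237% had r of at least 0.8, and Tmc5 (0.95), Muc5b (0.94), Cyp4a12b (0.93) and Reg3g (0.93), which encodes an antibacterial lectin, led them. This likeness was looked at after the values of Tff2 had been seen. For Gkn3 r was 0.19 and for Sftpc, a surfactant gene, 0.08. Muc5b ran from 0.55 to 5.39 over the same mice.

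**Figure D5:**
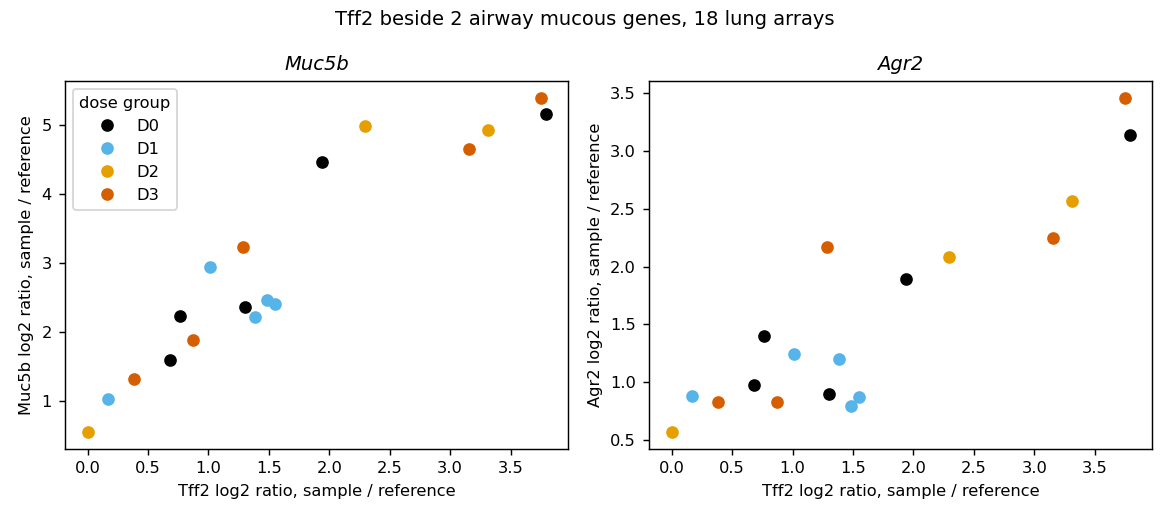
Log2 ratio of Muc5b (left) and Agr2 (right) against that of Tff2 on the 18 lung arrays, coloured by dose group. Mice of D0, D2 and D3 occur at both ends, and mouse 5 of the vehicle group has the highest Tff2 at 3.79.

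No member was called at any dose in lung or liver. The 3 tested in lung, Tff2, Gkn3 and Muc5ac, had D3 differences of 0.19, -0.003 and -0.04, where limma called 0% of 31495 probes at D1, 0% at D2 and 0.127% at D3. At an unadjusted p of at most 0.05 it had 5.88%, 6.12% and 16.1% of probes, and 0 of the 3 members. Without mice 17 and 19 the differences of Tff2, Gkn3 and Muc5ac were -0.22, 0.02 and -0.17, and no probe was called at D3, where all arrays gave 40. Gkn3 in lung had 1.31 ± 0.36 (SD, n = 5) at D0 and 1.30 ± 0.44 (n = 5) at D3, a difference with a 95% interval of -0.47 to 0.47.

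In liver 3 members were tested, Pgc, Gkn3 and Muc5ac, and limma called 0% of 24766 probes at D1, 0% at D2 and 0% at D3. At an unadjusted p of at most 0.05 it had 3.61%, 3.78% and 4.78% of probes. Pgc was the member past that limit at D1 and D3, with differences of -0.31 and -0.22, both with an adjusted p of 0.84 or more. Its values at D0 were 0.46 ± 0.14 (SD, n = 5), close to the background, with 3 of 5 arrays well above it.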

How the data were processed

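RNA of 56 samples was hybridised to Agilent 2-colour arrays, sample RNA always in Cy5 and the universal mouse reference always in Cy3. The scanner files deposited by the authors hold the median intensity of each spot and its flags (other values of 0 or 1), per the file headers neither background-subtracted nor dye-normalized. The log2 ratios used here are the deposited table of the authors, made by LOWESS within arrays without background subtraction. Against a loess fit of the scanner values, each array correlated at 0.977 to 0.998, and array medians lay from -0.0456 to -0.0201.

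After 3671 control spots were left out, 59305 spots gave 55681 probes, of which 26413 (47.4%) were named through RefSeq accessions of GRCm38.p6. A probe entered the tests of a tissue if 3 or more of its arrays had Cy5 well above background. Doses were compared with D0 in limma 3.58.1 (R 4.3.3), used in place of the methods' MAANOVA, on all arrays of a tissue, two-sided, with Benjamini-Hochberg adjustment over all probes tested. Vehicle tissues were compared in 1 fit of all 56 arrays, which pools the spread over tissues. Relations used 100000 permutations on the 10 arrays with every member, a departure from the planned use of all 19. Alternatives were other normalizations, no filter, slide or mouse as a block, second probes, array weights, array column and leaving out each mouse. Named genes are all members, the first tested genes of each list (others were singled out after their values were seen), and the 15 most and 5 least alike. The members and lists were chosen with earlier results of these data known. Each mouse gave 1 array per tissue, and the number of arrays limits the precision.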

Additional observations from a re-analysis of the deposited data

Results flagged for a closer look

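Of 110 groups of 4 or 5 values of a member, 10 held a mouse far from the rest by Dixon's test at the 95% level, which chance gives in about 1 of 20 groups. In forestomach at D3, mouse 19 stood far above the other 4 mice for Atp4a (7.18), Cblif (8.87), Gkn1 (5.78) and Gkn3 (5.86). At D2 mouse 12 was above the other 3 for Atp4b (7.12), Cblif (9.23), Gkn2 (8.65) and Tff1 (6.68). Mouse 12 was the only D2 mouse on slide 3, where Tff1 was 6.34 to 7.01 on the arrays with all members. The test takes no account of slide. In lung, mouse 17 at D3 had a high Muc5ac (0.97) and mouse 6 at D1 a low Pgc (-0.41), the latter not well above background. The groups of a mouse share an array, so that these are not independent.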

How the results depend on the processing

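No member was called in a dose comparison under any setting run, and the counts of all probes called were small and moved. In forestomach D2 had 57 with array weights and 1 each with own loess, with normexp and loess and with array column as a covariate, against 0. D3 had 0 with own loess, 1 with normexp and loess, 0 with median centring, 13 with slide as a block, 133 with array weights, 1 with array column, 5 on slide 3 only (a setting chosen after seeing the data) and 0 to 6 without 1 mouse, against 2. The trend had 4, 0, 63, 247 and 0 under own loess, median centring, slide, weights and column, and 0 to 81 without 1 mouse, against 11. In lung, D1 had 1 with normexp and loess, D2 had 0 to 1 without 1 mouse, and D3 had 14 with own loess, 15 with normexp and loess, 0 with median centring, 20 with slide, 15 with weights, 0 with column, 0 to 143 without 1 mouse and 0 without mice 17 and 19 (chosen after seeing the data), against 40. In liver, array column gave 2, 19 and 23 at D1, D2 and D3, against 0. Column goes mostly with dose.

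Direction reversed at D2 in forestomach with array column for Tff1 (-0.17), Tff2 (-0.0311), Gkn1 (-0.28), Gkn3 (-0.13) and Atp4a (-0.13), and with median centring for Tff2 (-0.39) and Pgc (-0.12). With array column the members ran from -0.28 to 0.66 at D2 and from -6.77 to -1.69 at D3. At D3 direction reversed for Tff1 with median centring (0.43), slide (0.037) and weights (0.0825), and between -0.82 and 0.38 without 1 mouse. In lung at D3, Gkn3 had 0.0605, 0.0162, 0.16, 0.0131 and 0.0443 with own loess, normexp and loess, median centring, slide and weights, -0.13 to 0.11 without 1 mouse and 0.0232 without mice 17 and 19. Tff2 had -0.27 to 0.72 and Muc5ac -0.16 to 0.13 without 1 mouse, Tff2 -0.22 without mice 17 and 19, and with column Tff2 had 6.18 (adjusted p = 1.00 in limma) and Muc5ac 0.45. Muc5ac in liver at D3 had 0.0269 with slide. None of these was called.

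For the vehicle tissues, median centring called 6526 probes against liver (main 12195) and 19151 against lung (main 12291), with 21.9% and 4.28% of calls higher in forestomach in place of 53.7% and 48.6%, and shifted the median of all probes by -0.98 against lung. It left 6 of 10 members called against liver. With mouse as a replicate block, as the same mice gave both tissues (correlation 0.0256), 10 and 8 members and 12210 and 12303 probes were called. With slide as a random block, chosen after seeing the data, 10 and 8 were. Slide as a fixed block could not be fitted there. Without 1 mouse, 7 to 10 members were called against each tissue. Most members passed the filter through forestomach alone, so that these member counts say nothing of stability. Gkn3 and Muc5ac, which passed in liver too, remained called against it under both blocks, which still pool the spread over tissues. Both lost the call without mouse 2, and Muc5ac also lost it with median centring. Of the relations, that of Tff1 and Tff2 had r = 0.46 within slides, and the cause was not tested.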
